A study of Mus musculus with 9 samples.

Results

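Apoe, Apoc1, Apod, Clu and Pltp encode secreted proteins that bind, carry or move lipids: apolipoproteins E, C1 and D, clusterin, which is also known as apolipoprotein J, and the phospholipid transfer protein. Their RNA was followed in 3T3-L1 cells, a clonal mouse fibroblast line that can be turned into adipocytes in culture. The genes were taken by the symbol in the platform's annotation, 5 of the 18193 genes measured, with 10 probe sets among them. Each gene was represented by the single-symbol probe set with the highest mean, selected on its mean over all 9 arrays, and its other probe sets served as a check. The genes were proposed with earlier results of the same arrays in view, so the tests below describe these arrays and are no independent support for any of them.

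Total RNA was hybridised to 9 single-colour oligonucleotide arrays, in 3 groups of 3. The PPAR gamma siRNA adipocytes had received siRNA aimed at PPAR gamma, a nuclear receptor needed for adipocyte formation, and the control siRNA adipocytes a non-targeting oligonucleotide. Both had been induced with 10 µg/ml insulin, 1 µM dexamethasone, a glucocorticoid, and 0.5 mM IBMX, a phosphodiesterase inhibitor that raises cyclic AMP, and counted as mature at day 8, when at least 95% had the adipocyte shape. At day 14 they were detached, electroporated with 2 or 3 nmol of siRNA and replated. The amount used for each array and the time to harvest are not given in the labels. The third group, the preadipocytes, were cells of the same line, and the labels name neither induction nor siRNA for them. All 3 groups were cultured in medium with 10% fetal bovine serum, which itself holds lipoproteins. Induction, electroporation and replating therefore cannot be told apart in a comparison with preadipocytes. The submitters call the 3 arrays of a group technical replicates, so every p-value below measures only the spread between these arrays, which may be technical.

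Lipoproteins are particles of lipid wrapped in phospholipid and apolipoproteins, and the apolipoproteins decide which receptors and enzymes a particle meets. Apolipoprotein E is a ligand by which the LDL receptor family takes up particles, and apolipoprotein C1 slows that uptake and inhibits lipoprotein lipase. Apolipoprotein D belongs to the lipocalins, which hold small hydrophobic molecules in a barrel-shaped pocket, and clusterin is an extracellular chaperone that travels partly on HDL. The phospholipid transfer protein, of the BPI fold family, moves phospholipids between particles and remodels HDL. Fat tissue is a known source of apolipoprotein E, and Apoe, Apoc1 and Pltp are known target genes of the oxysterol receptors LXR in macrophages.

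The RefSeq promoter table, on mouse build GRCm38.p6, held windows for 3 of the 5 genes: 3 transcription starts of Apoe and 1 start each of Apod and Pltp. Apoc1 and Clu were not matched. The windows run from 250 bases before the start to 50 after it. They are shown because these genes had higher RNA levels with PPAR gamma siRNA than with control siRNA. For Apoe the first start is printed. Each is given 5′ to 3′ on the minus strand, which carries the gene, with motif matches in capitals.
Apoe, chr7:19699139-19699438: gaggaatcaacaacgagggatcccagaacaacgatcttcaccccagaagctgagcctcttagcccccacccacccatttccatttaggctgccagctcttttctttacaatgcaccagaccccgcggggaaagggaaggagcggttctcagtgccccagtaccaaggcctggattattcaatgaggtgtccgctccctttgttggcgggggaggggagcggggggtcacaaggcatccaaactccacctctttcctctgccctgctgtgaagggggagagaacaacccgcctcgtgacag
Apod, chr16:31314759-31315058: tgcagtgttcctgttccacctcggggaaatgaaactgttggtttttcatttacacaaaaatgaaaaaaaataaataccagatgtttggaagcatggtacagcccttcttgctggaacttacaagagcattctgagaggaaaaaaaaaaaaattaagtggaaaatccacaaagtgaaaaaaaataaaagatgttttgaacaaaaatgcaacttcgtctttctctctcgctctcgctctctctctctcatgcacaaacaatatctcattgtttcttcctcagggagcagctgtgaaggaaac
Pltp, chr2:164857659-164857958: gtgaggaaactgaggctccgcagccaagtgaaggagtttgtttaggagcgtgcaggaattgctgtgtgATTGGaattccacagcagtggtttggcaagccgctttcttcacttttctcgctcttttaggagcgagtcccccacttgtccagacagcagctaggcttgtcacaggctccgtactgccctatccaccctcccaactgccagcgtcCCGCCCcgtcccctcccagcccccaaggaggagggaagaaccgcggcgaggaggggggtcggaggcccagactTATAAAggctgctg
Each window was searched on both strands for 6 short motifs. AGGTCA, the nuclear receptor motif, was in 16.2% of the 32544 promoter windows of the table and in none of the 5 windows of these genes. TATAAA was in 13.6% of all windows, GGGCGG, the GC box, in 35.9%, and CCAAT in 37.4%. TGANTCA, the AP-1 motif, was in 7.79% of all windows. AGATAA, which GATA factors bind, was in 11.2%. The Pltp window held CCAAT on the opposite strand from base -182, GGGCGG on the opposite strand from base -37 and TATAAA on its own strand from base 37, all counted from the start and none overlapping another. The Apod window and the printed Apoe window held none of the 6. The window of the second Apoe start held TATAAA on both strands, in 2 overlapping matches from bases -100 and -96, and that of the third held none. A match is a run of letters and not a bound site, and letters absent from these windows may stand elsewhere.

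Pparg, the gene the siRNA was aimed at, had log2 levels of 9.54, 9.58 and 9.64 in PPAR gamma siRNA adipocytes, 12.89, 12.82 and 12.65 in control siRNA adipocytes and 8.35, 8.20 and 8.12 in preadipocytes. It fell by 3.20 ± 0.09 (log2, SE) with PPAR gamma siRNA against control siRNA (adjusted p = 1.27e-09), and remained 1.36 ± 0.09 above preadipocytes (adjusted p = 6.98e-07). Arrays of one group correlated at 0.994 to 0.998 over all probe sets and arrays of different groups at 0.928 to 0.973. BioB is a control added to the samples. Its 5' probe set read 7.95 to 8.49 with PPAR gamma siRNA, 8.44 to 8.73 with control siRNA and 7.08 to 7.60 in preadipocytes. The preadipocyte arrays thus lay below both adipocyte groups in this control, and the part of that in the results was not tested. The probe sets at the 3' end of Actb exceeded those at its 5' end, which can be a sign of shortened RNA, by 0.54 to 1.25 in PPAR gamma siRNA adipocytes, 0.91 to 1.30 in control siRNA adipocytes and 0.23 to 0.36 in preadipocytes. For Gapdh the same difference was -0.19 to 0.11 over the 9 arrays. The Actb measure moved with the groups, and its part in the results was not tested as a cause. With it as a covariate, the calls described below for the 5 genes were the same in all 3 comparisons.

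Apoe was higher after PPAR gamma siRNA, and its levels in control siRNA adipocytes and preadipocytes overlapped. Its single probe set read log2 levels of 8.98, 9.09 and 9.07 on the PPAR gamma siRNA arrays, 7.84, 7.63 and 7.78 on the control siRNA arrays and 7.83, 7.87 and 7.74 on the preadipocyte arrays. All 3 PPAR gamma siRNA arrays lay above the other 6, which overlapped each other. The mean with PPAR gamma siRNA, 9.05 ± 0.06 (SD, n = 3), exceeded that with control siRNA, 7.75 ± 0.11 (n = 3), by 1.30 ± 0.09 (SE), which is 2.46-fold (adjusted p = 4.82e-07). It exceeded the preadipocyte mean, 7.81 ± 0.07 (n = 3), by 1.23 ± 0.09, or 2.35-fold (adjusted p = 8.28e-07). Control siRNA adipocytes and preadipocytes differed by -0.062 ± 0.088, with a 95% interval from -0.25 to 0.13 (adjusted p = 0.598). The sign of that estimate turned, to 0.056, when the arrays were quantile normalised again (adjusted p = 0.624). Here and in every comparison below, a bulk sample cannot show whether more RNA per cell or more cells of one kind lie behind a level.

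Apoc1, the neighbour of Apoe in the genome and its partner on particles, behaved differently. It read 12.77, 12.80 and 12.69 in PPAR gamma siRNA adipocytes, 12.32, 12.37 and 12.33 in control siRNA adipocytes and 5.94, 5.70 and 5.53 in preadipocytes. The groups did not overlap, and nearly the whole of the range lay between preadipocytes and both adipocyte groups. Control siRNA adipocytes, at 12.34 ± 0.03 (SD, n = 3), exceeded preadipocytes, at 5.72 ± 0.20 (n = 3), by 6.61 ± 0.10 (SE), a 98.0-fold difference (adjusted p = 2.01e-12). PPAR gamma siRNA adipocytes, at 12.75 ± 0.06 (n = 3), exceeded control siRNA adipocytes by 0.41 ± 0.10, or 1.33-fold, with a 95% interval from 0.19 to 0.64 (adjusted p = 0.00989). Among the 5 genes this was the smallest change with PPAR gamma siRNA. Against preadipocytes the PPAR gamma siRNA adipocytes stood 7.03 ± 0.10 higher, a change that exceeded those of 99.96% of all genes.

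Apod, the lipocalin, ran the other way between control siRNA adipocytes and preadipocytes. Its brightest probe set read 10.64, 9.86 and 10.08 with PPAR gamma siRNA, 7.73, 7.78 and 7.87 with control siRNA and 11.70, 11.73 and 11.72 in preadipocytes. Preadipocytes were highest, control siRNA adipocytes lowest, and the PPAR gamma siRNA arrays lay between them without overlap. In control siRNA adipocytes, at 7.79 ± 0.07 (SD, n = 3), it was 15.2-fold below preadipocytes, at 11.72 ± 0.02 (n = 3), a difference of -3.93 ± 0.16 (SE; adjusted p = 2.15e-09), and 0.401% of all genes had a lower one. With PPAR gamma siRNA, at 10.19 ± 0.40 (n = 3), it was 2.40 ± 0.16, or 5.29-fold, above control siRNA (adjusted p = 4.07e-07) and 2.87-fold below preadipocytes, a difference of -1.52 ± 0.16 (adjusted p = 1.85e-05). The spread among the PPAR gamma siRNA arrays was the widest of any group of the 5 genes, and replicate 1 was the highest of them. Without that array the difference from control siRNA was 2.18. The other probe set of Apod lay at 3.24 to 3.62 on every array, below the median probe set at 4.86. It showed differences of 0.04, -0.10 and -0.07 in PPAR gamma siRNA against control siRNA, control siRNA against preadipocytes and PPAR gamma siRNA against preadipocytes, none of them past the test, so Apod rests on 1 probe set.

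Clu, the chaperone, was lowest in preadipocytes, intermediate in control siRNA adipocytes and highest after PPAR gamma siRNA. The levels were 11.56, 11.56 and 11.64 in PPAR gamma siRNA adipocytes, 9.19, 9.04 and 9.19 in control siRNA adipocytes and 8.38, 8.21 and 8.25 in preadipocytes. The 3 groups were apart from each other on all arrays. The mean with PPAR gamma siRNA, 11.59 ± 0.05 (SD, n = 3), exceeded that with control siRNA, 9.14 ± 0.09 (n = 3), by 2.45 ± 0.09 (SE), with an adjusted p of 3.70e-09. Control siRNA adipocytes exceeded preadipocytes, at 8.28 ± 0.09 (n = 3), by 0.86 ± 0.09, or 1.81-fold (adjusted p = 5.46e-06). With PPAR gamma siRNA, Clu thus lay further from its preadipocyte level than with control siRNA, at 3.30 ± 0.09 or 9.88-fold above it (adjusted p = 2.63e-10). The 3 other probe sets of Clu gave differences of 2.58, 2.76 and 2.53 for PPAR gamma siRNA against control siRNA and of 0.94, 0.69 and 0.87 for control siRNA against preadipocytes, all past the test. The brightest of the 4 is of the x type, whose probes can also match other transcripts. The probe set of the a type, made for transcripts of 1 gene, is the one that gave 2.53 and 0.87.

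Pltp, the transfer protein, resembled Apod in direction with smaller differences. It read 11.33, 11.76 and 11.55 with PPAR gamma siRNA, 10.96, 11.02 and 10.56 with control siRNA and 12.34, 12.38 and 12.40 in preadipocytes. The preadipocyte arrays were the highest and the control siRNA arrays the lowest, again without overlap. With PPAR gamma siRNA, at 11.55 ± 0.22 (SD, n = 3), it exceeded control siRNA, at 10.84 ± 0.25 (n = 3), by 0.70 ± 0.14 (SE), or 1.63-fold (adjusted p = 0.00189). Control siRNA adipocytes had 2.88-fold less than preadipocytes, at 12.37 ± 0.03 (n = 3), a difference of -1.53 ± 0.14 (adjusted p = 1.87e-06). PPAR gamma siRNA adipocytes had 1.77-fold less than preadipocytes, a difference of -0.82 ± 0.14 (adjusted p = 0.00061). The second probe set of Pltp gave a larger difference between the siRNAs. It read 10.68, 11.29 and 11.07 with PPAR gamma siRNA, 9.76, 9.89 and 9.43 with control siRNA and 11.73, 11.74 and 11.71 in preadipocytes, which is 1.32 ± 0.15 between the siRNAs (adjusted p = 3.77e-05) and -2.03 ± 0.15 between control siRNA adipocytes and preadipocytes (adjusted p = 4.27e-07). The brighter one is of the s type, whose probes are shared by several transcripts, so the direction is common to both probe sets and the size is not settled.

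**Figure D1:**
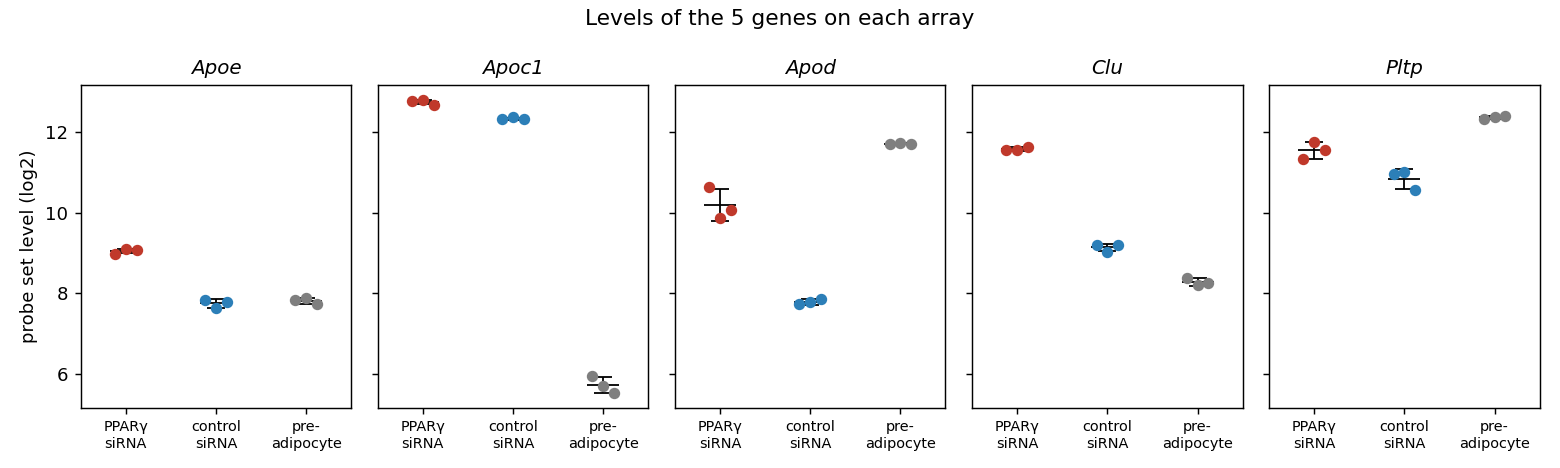
Log2 level of the brightest probe set of each of the 5 genes on every array, with PPAR gamma siRNA adipocytes in red, control siRNA adipocytes in blue and preadipocytes in grey. Points are arrays and black bars the mean ± SD of 3, to be compared within a gene and not between genes. Apoc1 is above 12 in both adipocyte groups and at 5.53 to 5.94 in preadipocytes, and Apod and Pltp are highest in preadipocytes.

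With PPAR gamma siRNA against control siRNA, all 5 genes were higher and none lower, where 19.9% of all genes were called higher and 16.1% lower. Their differences exceeded those of 96.4% of all genes for Apoe, 83.0% for Apoc1, 99.5% for Apod, 99.6% for Clu and 90.4% for Pltp. The genes were proposed with this comparison known, so nothing is read from the count. Between control siRNA adipocytes and preadipocytes, Apoc1 and Clu were higher and Apod and Pltp lower, while Apoe was not called. Of all genes, 27.1% were called higher there and 24.7% lower. Between PPAR gamma siRNA adipocytes and preadipocytes, Apoe, Apoc1 and Clu were higher and Apod and Pltp lower, against 19.6% of all genes called higher and 16.9% lower. The comparisons share arrays, and their values are given side by side for that reason. In Apod and Pltp the PPAR gamma siRNA level lay between those of the other groups, and in Clu, Apoe and Apoc1 above both.

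**Figure D2:**
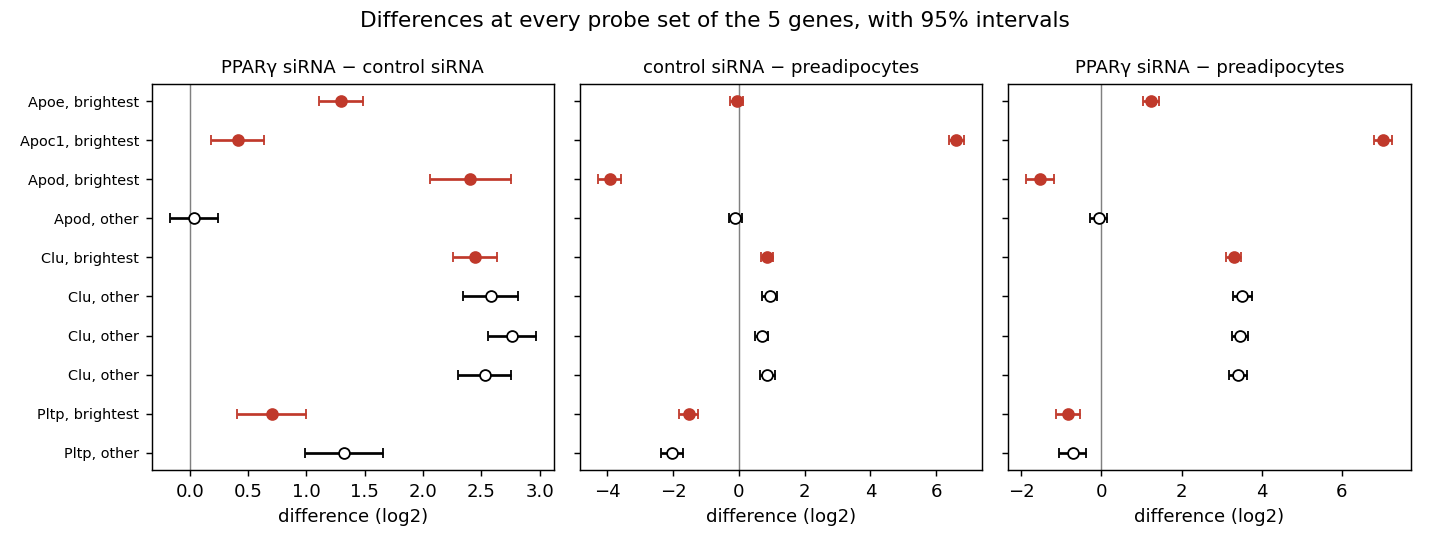
Log2 difference at each of the 10 probe sets of the 5 genes in the 3 comparisons, with 95% intervals from the fit over all probe sets. Filled red points are the brightest probe set of a gene and open points the others. In the left panel every point lies right of 0, and the interval of the dim Apod probe set, at 0.04, spans 0.

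The profiles of the 5 genes over the 9 arrays were then set against each other as the root mean square of the log2 differences left once each gene's own mean was taken off. Apoe and Clu were the closest pair at 0.849, Apoe and Pltp followed at 0.881 and Apod and Pltp at 1.06. Apoc1 and Apod were farthest apart at 4.58. By the same measure over 18192 other genes, Apoe was most like Fn1 (0.0645), which encodes the matrix glycoprotein fibronectin, Ddr1 (0.117), a collagen receptor kinase, and Camkk2 (0.118), a calcium-dependent kinase. Each of those 3 rose with PPAR gamma siRNA against control siRNA, by 1.37, 1.20 and 1.22 (log2), and did not pass the test between control siRNA adipocytes and preadipocytes. Apoc1 was most like Ces1d (0.330), Itih4 (0.346) and Ces1f (0.512), 2 carboxylesterases and a plasma protein of the inter-alpha-trypsin inhibitor family. Those 3 shared its large difference between control siRNA adipocytes and preadipocytes. Between the siRNAs Ces1f fell by 0.78 and Ces1d, at 0.26, and Itih4, at -0.25, did not pass the test. Apod was most like Rcn1 (0.272), a calcium-binding protein of the endoplasmic reticulum, Cpt1c (0.272), a carnitine palmitoyltransferase family member, and Tpbg (0.274), the trophoblast glycoprotein. Rcn1 rose by 2.36 with PPAR gamma siRNA against control siRNA, Cpt1c by 2.80 and Tpbg by 2.41. Clu was most like Htra4 (0.228), a serine protease, Comp (0.230), the cartilage oligomeric matrix protein, and Aqp5 (0.280), a water channel. Comp was 2.36 higher with PPAR gamma siRNA than with control siRNA. Pltp was most like Arhgap17 (0.103), Lrrcc1 (0.106), a centrosomal protein, and Sec31a (0.109), a subunit of the COPII vesicle coat. These likenesses rest on 9 arrays in 3 groups, describe group patterns and move with the settings. That of Fn1 was 0.0300 without control siRNA replicate 1 and 0.600 with the mean of all probe sets of each gene. Without PPAR gamma siRNA replicate 1, that of Rcn1 was 0.145 and that of Tpbg 0.166. With the mean of all probe sets, Rcn1 stood at 0.748, Cpt1c at 0.915, Tpbg at 0.567 and Arhgap17 at 0.517.

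The other C apolipoproteins went against Apoc1 between the siRNAs. Apoc2, the activator of lipoprotein lipase, read 4.64, 4.64 and 4.48 with PPAR gamma siRNA, 6.71, 6.61 and 6.84 with control siRNA and 3.80, 3.83 and 4.01 in preadipocytes. Apoc3, an inhibitor of lipoprotein lipase, read 3.68, 3.63 and 3.36 with PPAR gamma siRNA, 6.21, 6.16 and 6.20 with control siRNA and 3.26, 3.17 and 3.50 in preadipocytes. Apoc4, a minor component of particles, read 6.03, 5.53 and 6.03 with PPAR gamma siRNA, 7.91, 8.02 and 8.00 with control siRNA and 5.33, 5.33 and 5.37 in preadipocytes. All 3 were highest in control siRNA adipocytes, and the PPAR gamma siRNA arrays lay above the preadipocyte arrays in Apoc2 and Apoc4 and overlapped them in Apoc3. With PPAR gamma siRNA against control siRNA, Apoc2 fell by 2.13 ± 0.10 (adjusted p = 2.44e-08), Apoc3 by 2.63 ± 0.11 (adjusted p = 1.37e-08) and Apoc4 by 2.12 ± 0.13 (adjusted p = 1.75e-07). Apoc2 and Apoc3 lay below the median probe set, at 4.86, with PPAR gamma siRNA and in preadipocytes. No detection calls were used, so differences against levels that dim are as measured and may understate the change. Apoc2, Apoc4, Apoc1 and Apoe follow one another in that order on chromosome 7 in RefSeq. Within that row of 4 neighbours, 2 fell and 2 rose between the siRNAs. Apoc2, at 2.84, Apoc4, at 2.63, and Apoc1 all exceeded their preadipocyte levels with control siRNA, and Apoe did not pass that test.

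**Figure D3:**
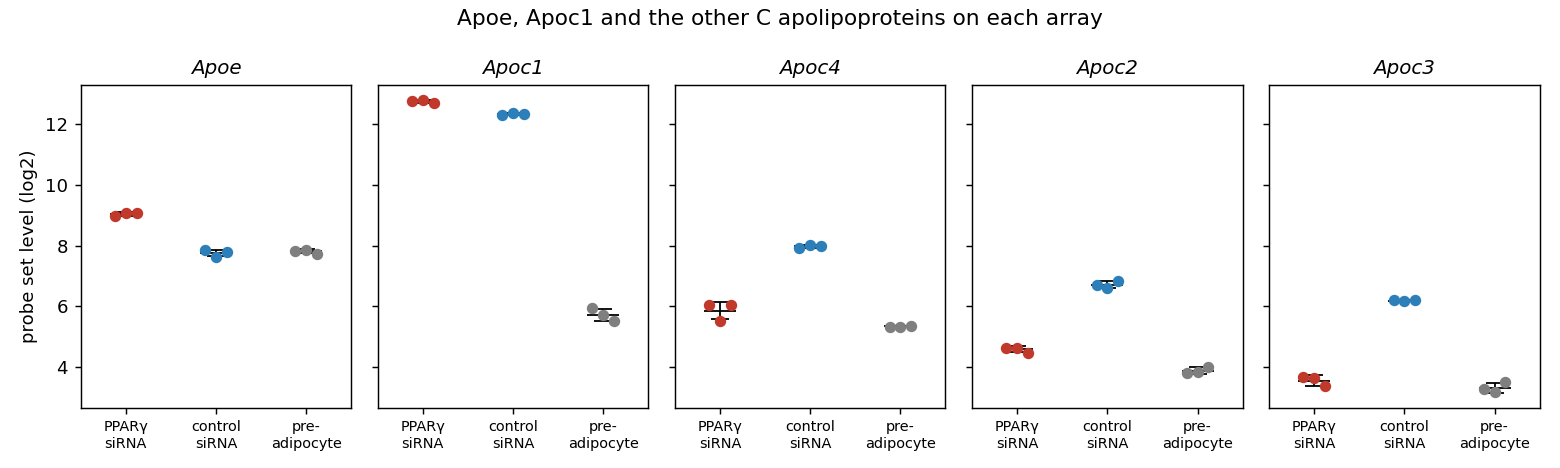
Log2 level on every array of Apoe, Apoc1, Apoc4, Apoc2 and Apoc3, with PPAR gamma siRNA adipocytes in red, control siRNA adipocytes in blue and preadipocytes in grey. Points are arrays and black bars the mean ± SD of 3, to be compared within a gene. Apoc4, Apoc2 and Apoc3 are highest with control siRNA, while Apoe and Apoc1 are highest with PPAR gamma siRNA.

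Of 94 further genes of lipoprotein biology in 5 lists, 82 were measured. Of all genes, 19.9% were called higher and 16.1% lower with PPAR gamma siRNA against control siRNA, and 27.1% higher and 24.7% lower with control siRNA against preadipocytes, and the counts of the lists stand against these shares. Among 18 other apolipoproteins, 1 rose and 6 fell with PPAR gamma siRNA against control siRNA, with a median difference of -0.03, where the median of all genes was -0.0088. The riser was Apol7a at 0.41 ± 0.10 (adjusted p = 0.00866). That call was lost, at an adjusted p of 0.086, without the 2 adipocyte arrays whose Actb ends differed most. Among those that fell were Apoo, a mitochondrial inner membrane protein despite its name, by 1.96, and Apol6, an intracellular family member, by 1.34. Between control siRNA adipocytes and preadipocytes 7 rose and 2 fell (median 0.17, all genes 0.09), led by Apol6 at 5.76 ± 0.11 and Apoc3 at 2.88 ± 0.11. Apol7a, at -0.63 ± 0.10, and Apoh, which binds negatively charged phospholipid, at -0.46 ± 0.09, were the 2 that fell. The mean over all probe sets of Apoh was 0.20 the other way and did not pass the test.

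Of 18 receptors and their adaptors, 3 rose and 5 fell with PPAR gamma siRNA against control siRNA (median -0.07), against 19.9% and 16.1% of all genes. Lrp1, a large endocytic receptor that binds apolipoprotein E, averaged 9.39 ± 0.28 with PPAR gamma siRNA and 8.50 ± 0.29 with control siRNA (SD, n = 3 each), a rise of 0.89 ± 0.16 (adjusted p = 0.00112), or 0.58 with the mean of its probe sets. Lrp11 rose by 0.54 ± 0.14 (adjusted p = 0.0128), a call lost without PPAR gamma siRNA replicate 2 or 3 or control siRNA replicate 2, at adjusted p of 0.0509, 0.0517 and 0.0577. The HDL receptor Scarb1 fell by 1.50 ± 0.13 and the fatty acid and lipoprotein scavenger receptor Cd36 by 1.50 ± 0.10 (adjusted p = 4.31e-07). The VLDL receptor Vldlr, another receptor for apolipoprotein E, fell by 0.39 ± 0.09 (adjusted p = 0.00654). Between control siRNA adipocytes and preadipocytes 6 receptors rose and 5 fell (median 0.08). Cd36 rose by 9.92 ± 0.10 there, with preadipocytes below the median probe set, and Scarb1 by 4.17 ± 0.13. Lrp11, at -1.04 ± 0.14, and Apobr, a receptor for apolipoprotein B at -0.92 ± 0.18, had the largest falls, and Apobr was at -1.44 with the Actb measure as a covariate.

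The 12 measured lipases, assembly factors and plasma enzymes held no gene that rose between the siRNAs and 8 that fell (median -0.51), against 19.9% and 16.1% of all genes. Angptl4, a secreted inhibitor of lipoprotein lipase, averaged 9.40 ± 0.06 with PPAR gamma siRNA and 12.32 ± 0.08 with control siRNA (SD, n = 3 each), a fall of 2.92 ± 0.08 (adjusted p = 1.00e-09). Pon2, an intracellular paraoxonase, fell by 1.66 ± 0.11. Lpl, lipoprotein lipase itself, fell by 0.82 ± 0.08 (adjusted p = 7.26e-06). Between control siRNA adipocytes and preadipocytes 6 of the 12 rose and 1 fell (median 0.60), with Angptl4 at 2.97 ± 0.08, Pon2 at 2.61 ± 0.11 and, as the one that fell, Pla2g7, a phospholipase carried on lipoproteins, at -2.29 ± 0.13. The probe sets of Angptl4 and Pon2 disagreed in size. The mean of all probe sets of Angptl4 was -1.74 between the siRNAs and 1.71 between control siRNA adipocytes and preadipocytes, and without probe sets of the x and s types it was -0.56 (adjusted p = 0.017) and 0.44 (adjusted p = 0.0366). The mean of all probe sets of Pon2 was -0.78 and 1.35 in the same comparisons.

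The cholesterol efflux genes, LXR receptors and LXR target genes had 7 of 15 higher and 3 lower with PPAR gamma siRNA against control siRNA (median 0.22), against 19.9% and 16.1% of all genes. Nr1h3, the LXR alpha receptor, averaged 7.43 ± 0.07 with PPAR gamma siRNA and 9.39 ± 0.09 with control siRNA (SD, n = 3 each), a fall of 1.96 ± 0.08 (adjusted p = 1.64e-08). It stayed above its preadipocyte mean, 5.09 ± 0.04, and was the only LXR receptor among the 15 measured genes. Apoe, Apoc1 and Pltp, known LXR targets in macrophages, rose between the same arrays on which Nr1h3 fell. The part of LXR in their levels was not tested. The other genes of the list were divided. Abca7, a phospholipid exporter, rose by 0.86 ± 0.11 (adjusted p = 6.02e-05) and Srebf1, a regulator of fatty acid synthesis, by 0.59 ± 0.09 (adjusted p = 0.000513), while Lpcat3, a phospholipid acyltransferase, fell by 0.71 ± 0.09 (adjusted p = 5.23e-05). The exporters Abca1, at 0.22 ± 0.15 (adjusted p = 0.326), and Abcg1, at -0.28 ± 0.17 (adjusted p = 0.301), did not pass the test. Npc1, which lets cholesterol out of lysosomes, rose by 0.79 ± 0.09 (adjusted p = 3.27e-05). Between control siRNA adipocytes and preadipocytes 6 of the 15 rose and 3 fell (median 0.15). Abcg1 rose by 5.79 ± 0.17 and Nr1h3 by 4.30 ± 0.08, and Nceh1, a cholesteryl ester hydrolase at -1.45 ± 0.14, and the transporter Abca5 at -1.15 ± 0.13, or -0.60 with the mean of its probe sets, had the largest falls.

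Among 19 lipocalins and BPI fold proteins, the families of Apod and Pltp, 4 rose and 4 fell between the siRNAs (median -0.01), against 19.9% and 16.1% of all genes. Orm3, an acid glycoprotein, averaged 6.80 ± 0.19 with PPAR gamma siRNA and 5.14 ± 0.09 with control siRNA (SD, n = 3 each), a rise of 1.65 ± 0.10 (adjusted p = 2.52e-07). Ptgds, a lipocalin and prostaglandin D synthase, averaged 8.22 ± 0.09 and 6.72 ± 0.25 in the same groups, a rise of 1.50 ± 0.13 (adjusted p = 3.14e-06). The acid glycoprotein Orm1 fell by 1.29 ± 0.10 and the complement lipocalin C8g by 0.59 ± 0.08. The 3 acid glycoproteins are close copies of each other, so signal may be shared among their probe sets. Between control siRNA adipocytes and preadipocytes 5 rose and 1 fell (median 0.17), led by Orm1 at 8.65 ± 0.10 and Orm2 at 2.96 ± 0.14, both below the median probe set in preadipocytes. The one that fell was Ptgds at -0.43 ± 0.13 (adjusted p = 0.0176), a call lost in 7 other settings. They include the omission of control siRNA replicate 3 and of preadipocyte replicate 2 or 3, at adjusted p of 0.0628, 0.0598 and 0.0706, and the highest adjusted p was 0.226. Against preadipocytes, PPAR gamma siRNA adipocytes had 6 other apolipoproteins higher and 1 lower (median 0.19), 6 and 3 receptors (0.11), 4 and 2 lipases and enzymes (0.04), 8 and 2 efflux and LXR genes (0.39) and 7 and 0 lipocalins and BPI fold proteins (0.20), where the median of all genes was 0.07. In that comparison 19.6% of all genes were called higher and 16.9% lower.

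**Figure D4:**
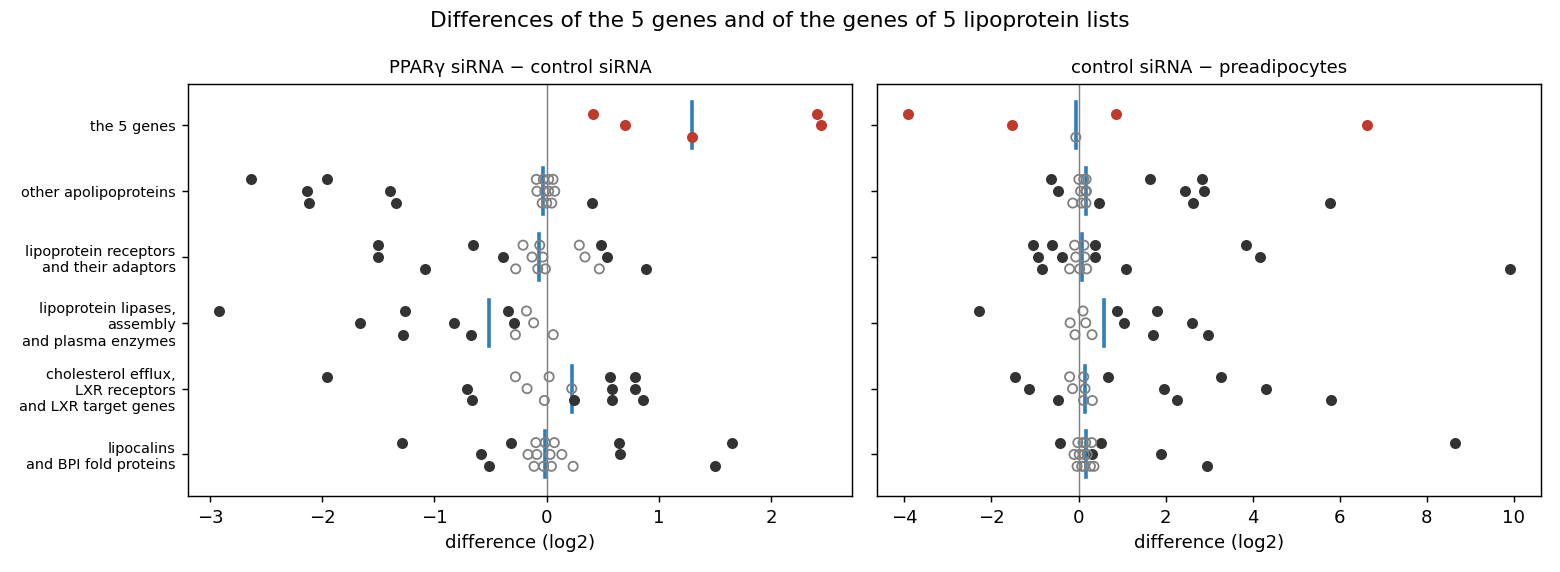
Log2 difference of each of the 5 genes, in red, and of each measured gene of the 5 lists, for PPAR gamma siRNA minus control siRNA on the left and control siRNA minus preadipocytes on the right. Filled points passed an adjusted p of 0.05, open points did not, blue lines are medians, and vertical offsets only separate points. On the left the 5 genes lie between 0.41 and 2.45, and no filled point of the lipases and enzymes lies right of 0.

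Markers of the cell types the cultures could hold were read on the same arrays. Of 10 measured adipocyte markers, 9 were lower with PPAR gamma siRNA than with control siRNA (median -2.13) and 9 were higher with control siRNA than in preadipocytes (median 5.30), so the labelled adipocytes carried their markers. Leptin RNA (Lep) was the exception in both, at 3.37 to 3.95 on every array, below the median probe set at 4.86. Of all genes, 19.9% were called higher and 16.1% lower between the siRNAs. With control siRNA against preadipocytes the shares were 27.1% and 24.7%. Of 11 preadipocyte and fibroblast markers, 10 were higher with PPAR gamma siRNA than with control siRNA (median 1.52). Cd34 was not called there and lay at 3.28 to 4.12 on every array, also below the median probe set. Of the same 11 markers, 10 were lower in control siRNA adipocytes than in preadipocytes (median -2.17). Their summed level on a linear scale was 64877 to 79672 with PPAR gamma siRNA, 27936 to 31653 with control siRNA and 111033 to 117687 in preadipocytes. That order is the order of Apod and Pltp and not that of Apoe, Apoc1 or Clu. Fn1, the gene most like Apoe, is 1 of these markers but departed from the others. It was the 1 not called between control siRNA adipocytes and preadipocytes, at -0.10 (adjusted p = 0.330). Between PPAR gamma siRNA adipocytes and preadipocytes 1 of the 11 was called higher, Fn1 at 1.27, and 7 lower. Of all genes, 19.6% were called higher and 16.9% lower there. Adipocyte markers summed to 18210 to 20204 with PPAR gamma siRNA, 75477 to 77444 with control siRNA and 1272 to 1388 in preadipocytes. The part of either cell state in the levels of the 5 genes was not tested.

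Macrophages are a main source of apolipoprotein E in tissues, and 16 of their markers were measured. Between the siRNAs 3 rose, Cd68 by 1.20 ± 0.22 (adjusted p = 0.00125), Cd14 by 1.78 ± 0.10 (adjusted p = 8.91e-08) and Mpeg1 by 0.90 ± 0.24 (adjusted p = 0.0132), C1qc and Msr1 fell, and 11 were not called. Those counts are near the shares of all genes, 19.9% called higher and 16.1% lower. The summed macrophage marker level was 885 to 1148 with PPAR gamma siRNA, 590 to 636 with control siRNA and 439 to 481 in preadipocytes. Cd14, Mpeg1 and Cd68 were the brightest of the 16 with PPAR gamma siRNA, at means of 8.46, 7.85 and 6.56. They weigh most in that sum, which does not stand for the whole list. Of the 16, 9 were below the median probe set on every array, among them the defining Adgre1, Ptprc and Itgam and the complement genes C1qa, C1qb and C1qc. Of 11 hepatocyte markers, whose cells make most circulating apolipoproteins, none was called between the siRNAs and 7 lay below the median probe set on every array. Their sums were 273 to 295 with PPAR gamma siRNA, 303 to 318 with control siRNA and 242 to 263 in preadipocytes.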

How the data were processed

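RNA from 9 samples was measured on 1 array each, in 3 groups of 3 taken from the sample titles. Per the range of the deposited values, 2.41 to 14.59, these are probe set summaries on a log2 scale. Per the submitters' processing notes, MAS5, RMA and affy 1.16.0 were used, with no role or order given. The authors' values had array medians of 4.82 to 4.89, and how the background was corrected is not stated in the labels. The number of arrays limits the precision.

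No further scaling was applied. The 64 control probe sets were left out and the other 45037 were tested in limma 3.58.1 (R 4.3.3), in 1 linear model with 3 group means and moderated variances. Tests were two-sided, and Benjamini-Hochberg adjustment ran over all 45037, with calls at an adjusted p under 0.05. Of 35890 annotated probe sets, 34945 had 1 symbol and 932 several. The 34945 gave 18193 genes, each represented by its brightest probe set. A difference is the mean of the first group named minus that of the second, ± SE, and a level is the mean ± SD of 3 arrays.

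Members and gene lists were chosen with earlier results of these data known. Besides Pparg and the 5 genes, genes were named by rule: up to 2 rises and 2 falls per list in each of 2 comparisons, and the 3 genes of most like profile per member. Apoc4, Apoo, Vldlr, Lpl, Srebf1, Abca1, the values of Abcg1 and Apol6 between the siRNAs and of Apoc2 against preadipocytes, and the markers Cd68, Cd14 and Mpeg1 were named after their values were seen. Replicate numbers were not used to pair the samples in the main fit. Of 9 same-numbered pairs 1 had a correlation of deviations over 0.1, with a range of -0.19 to 0.17. Differently numbered pairs were not compared, so this does not settle whether the numbers pair the samples. Alternatives were other normalisations, variance models, probe sets, a 2-fold minimum, RNA quality settings, a replicate block and omission of each array.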

Additional observations from a re-analysis of the deposited data

How the results depend on the processing

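Under 23 other settings, 9 of them omissions of 1 array, the changes of the 5 genes in the 3 comparisons were recomputed 315 times: 307 kept direction and side of the threshold, 7 lost the call and 1 changed sign. The sign change was Apoe between control siRNA adipocytes and preadipocytes, at 0.056 under renewed quantile normalisation (adjusted p = 0.624). Between the siRNAs, Apoc1 ranged from 0.37 to 0.54, with adjusted p of 0.00115 to 0.0376, and was under the 2-fold minimum. Calls of Apod were lost at its dim probe set. Of 700 recomputed changes of the named list genes, 678 kept their call, 21 lost it and 1 changed sign, Apoh, at 0.20 with the mean of all its probe sets.

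With the 2-fold minimum, genes called among the 5 were 3 higher between the siRNAs, 1 higher for control siRNA against preadipocytes and 1 lower for PPAR gamma siRNA against preadipocytes. List genes then called were 2 higher (main 15) and 15 lower (26) between the siRNAs, 4 lower (12) for control siRNA against preadipocytes, and 15 higher (31) and 2 lower (8) for PPAR gamma siRNA against preadipocytes. The last count ranged from 5 to 8 with 1 array left out, and was 5 without PPAR gamma siRNA replicate 1, preadipocyte replicate 1 or preadipocyte replicate 2. With the other probe sets, 1 of the 5 was lower than in preadipocytes in either adipocyte group. With the replicate block, Apoc1 kept 0.41 between the siRNAs (adjusted p = 0.0131), and no call of the 5 genes changed. Causes were not tested.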

Other observations

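The genes up to 4 places to either side of the 5 in RefSeq's order were read, and those named below were chosen after their values were seen. Between PPAR gamma siRNA and control siRNA, 19.9% of all genes were called higher and 16.1% lower. Of 7 measured neighbours of Apoe, 1 was called higher, Apoc1, and 4 lower, Apoc2, Apoc4, Tomm40 and Nectin2. On chromosome 7, Tomm40, the neighbour of Apoe on the side away from Apoc1, which encodes the channel of the mitochondrial import complex, differed by -1.60 between PPAR gamma siRNA and control siRNA (adjusted p = 1.14e-07) and by 1.67 between control siRNA adipocytes and preadipocytes. Nectin2, a cell adhesion protein one place farther on, differed by -1.17 and 1.35 in the same comparisons. The next genes on that side, Bcam at -0.25 (adjusted p = 0.265) and Cblc at -0.042 (adjusted p = 0.804), were not called between the siRNAs, nor was Clptm1 beyond Apoc2, at -0.096 (adjusted p = 0.526).

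On chromosome 2, 3 of 8 measured neighbours of Pltp were called higher between the siRNAs and none lower. Ctsa, a lysosomal protease next to Pltp, differed by 1.46 (adjusted p = 1.58e-07) and by -1.45 between control siRNA adipocytes and preadipocytes, and Neurl2, the next gene, by 0.90 and -0.71. On the other side, the adjacent Pcif1 was not called in either comparison, at 0.27 (adjusted p = 0.144) and -0.090, and Mmp9, a matrix protease at the third place, was at 0.47 and -2.66. On chromosome 16, 4 of 7 measured neighbours of Apod were called higher and none lower. Ppp1r2, next to Apod and the source of a phosphatase inhibitor, differed by 1.01 and -1.02, Xxylt1 by 1.04 and -1.48, Fam43a by 1.86 and -2.55 and Dlg1 by 0.43 and -1.25, while Acap2 (-0.16 and 0.15), Bdh1 (-0.083 and 0.11) and Meltf (-0.24 and 0.30) were not called. On chromosome 14, 1 of 8 neighbours of Clu was called higher and 1 lower. Scara3, a scavenger receptor family member next to Clu, differed by 1.29 and -2.99, and Ephx2, an epoxide hydrolase, by -0.74 (adjusted p = 4.62e-05) and 1.40, while Gulo, next to Clu on the other side, was at -0.16 and not called. Whether place on the chromosome has a part in these values was not tested.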
